A study of Mus musculus with 6 samples.

Results

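Branched-chain amino acid catabolism was followed through 8 genes in C2C12 myotubes, comparing cells kept in insulin with untreated cells. The genes were Bcat1, Bcat2, Bckdha, Bckdhb, Dbt, Bckdk, Ppm1k and Ivd, out of 20416 genes with a symbol on the array. They were found by exact match of the platform's gene symbol, which gave 90 probe sets of the 241576 in the deposited table. Probe sets with several symbols were left out beforehand. C2C12 is an established mouse myoblast line whose cells fuse into contractile myotubes when serum is lowered, so all samples come from 1 line and not from separate animals. Per the labels, cells were grown in 10% fetal bovine serum, switched to 2% horse serum, and used as myotubes between days 4 and 7 after the switch. The insulin group had 3 samples that received 100 nM insulin for 48 h, a long exposure meant to make the cells insulin resistant. The control group had 3 samples left untreated, and a medium change every 24 h is given for both groups. The labels call the samples biological replicates and say no more about how they were separated. The p-values thus set a difference between groups against the variation among these samples.

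Leucine, isoleucine and valine are broken down by a shared route before their paths part. Aminotransferases, cytosolic BCAT1 and mitochondrial BCAT2, move the amino group to 2-oxoglutarate, and the resulting branched-chain ketoacids are decarboxylated irreversibly by a mitochondrial dehydrogenase complex. BCKDHA and BCKDHB are its decarboxylase subunits and DBT is its transacylase core. The kinase BCKDK phosphorylates and inhibits the complex, the phosphatase PPM1K reverses that, and IVD, isovaleryl-CoA dehydrogenase, then opens the leucine arm. Skeletal muscle is known as a main site of branched-chain transamination, chiefly through BCAT2, while BCAT1 is better known from brain, embryonic and proliferating cells.

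In these data 1 of the 8 genes rose strongly, 1 fell slightly, and the rest of the shared route did not pass the test. Bcat1 rose on every insulin array and in 12 of its 13 probe sets. Bckdha was lower in all 9 of its probe sets, by about 1.24-fold at the gene level. Bcat2, Dbt, Bckdk, Ppm1k and Ivd did not pass, and Bckdhb was too dim to be tested. Each gene got 1 value per array, the middle one among its probe sets in log2 units, where a step of 1 is a doubling. The test was limma's moderated test of insulin minus control over 14291 genes, with p-values adjusted by Benjamini-Hochberg and a threshold of 0.05. Of the 7 members tested, 1 was called higher, where 9.56% of all tested genes were, and 1 lower, where 6.35% were. The median change of the 7 was -0.016 on the log2 scale, beside -0.0028 for all tested genes. That median covers genes that went both ways, from -0.31 to 1.87, and whether the members as a group differ from other genes was not tested.

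**Figure D1:**
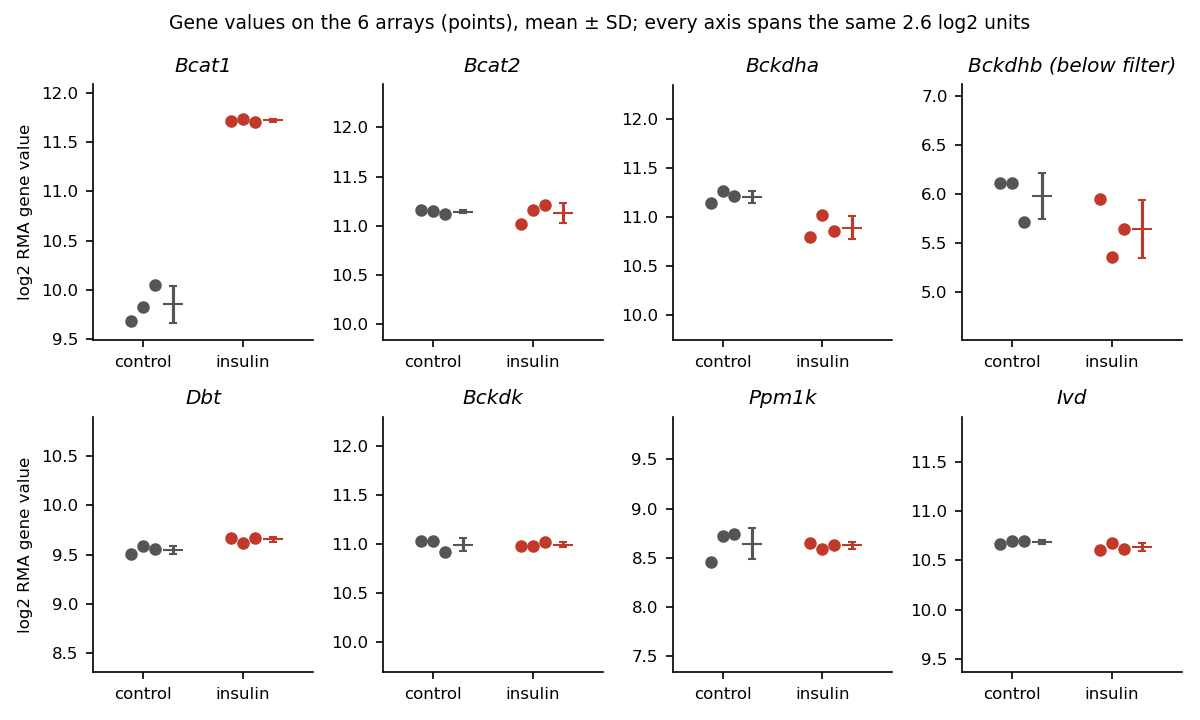
Gene values of the 8 members on the 6 arrays, in log2 RMA units on the y axis, with control arrays in grey and insulin arrays in red. Points are arrays and bars are the mean ± SD of 3 arrays. Bcat1 lies between 9.68 and 10.05 on the controls and between 11.71 and 11.74 on the insulin arrays, and Bckdha is the other called gene.

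The regulatory sequence of Bcat1 is shown because it is the member with the large change. RefSeq's table for GRCm38.p6 lists 2 transcription starts for it, 27345 bases apart on the minus strand of chromosome 6. The 250 bases before each start are printed 5′ to 3′, from chr6:145076158-145076407 for start 1 and from chr6:145048813-145049062 for start 2. Capitals mark matches on either strand to the letters searched, which were the amino acid response element TGATGNAAT, its core GATGCAA, the E-box CACGTG, the CCAAT box and the TATA box TATAAA.
Bcat1 start 1: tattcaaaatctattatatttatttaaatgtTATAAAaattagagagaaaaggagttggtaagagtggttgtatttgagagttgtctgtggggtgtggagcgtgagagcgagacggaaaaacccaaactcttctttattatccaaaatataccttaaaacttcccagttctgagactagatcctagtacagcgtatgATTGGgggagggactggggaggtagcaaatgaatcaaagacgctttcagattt
Bcat1 start 2: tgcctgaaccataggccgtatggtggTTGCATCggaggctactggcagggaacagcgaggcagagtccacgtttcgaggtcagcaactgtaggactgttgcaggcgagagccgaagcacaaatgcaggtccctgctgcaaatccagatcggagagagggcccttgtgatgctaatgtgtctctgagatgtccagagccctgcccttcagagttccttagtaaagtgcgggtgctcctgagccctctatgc
The window of start 1 held TATAAA, whose first base lay 219 bases before the start, and CCAAT on the opposite strand 53 bases before it. The window of start 2 held GATGCAA on the opposite strand, with the leftmost base 224 bases before the start. GATGCAA is found in 2.19% of 32851 windows of the same length, TATAAA in 12.4% and CCAAT in 33.8%. TGATGNAAT (0.816% of windows) and CACGTG (6.02%) were not found in either Bcat1 window. The 2 windows also differed in base composition, with 37.6% G and C before start 1 and 56.4% before start 2, beside a median of 52.4% over all windows. The promoter table used here, made from RefSeq, gave 10 windows for 7 of the 8 genes (Dbt was not analysed here), and GATGCAA was found in 1 of them, that of Bcat1 start 2. CCAAT was found in the windows of Bckdk, Ppm1k, Ivd and Bckdhb start 1 as well, with 4 matches before Ivd. TATAAA was also found in the window of Bckdk, on the opposite strand 169 bases before the start. A match is a string of letters and not a measured binding event, and which start these myotubes used was not measured.

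Bcat1, the cytosolic aminotransferase, had gene values of 9.68, 9.83 and 10.05 on control arrays 1, 2 and 3, and of 11.72, 11.74 and 11.71 on insulin arrays 1, 2 and 3. The insulin arrays lay far above all controls and almost on top of each other, while the controls were spread. The means were 9.85 ± 0.19 and 11.72 ± 0.015 (SD, n = 3 each). Bcat1 thus rose by 1.87 ± 0.10 on the log2 scale (SE, 95% confidence interval 1.65 to 2.09, limma adjusted p = 4.44e-05), or 3.66-fold. Only 5 of the 14291 tested genes rose more by this measure, which places Bcat1 at rank 6.

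The probe sets of Bcat1 show that the size of the rise depends on how they are combined. Probe sets are numbered here in order of their identifiers, as no position on the genome was used. Limma called 12 of the 13 higher, by 1.08 to 1.80 on the log2 scale (adjusted p from 7.43e-04 to 0.0104), where 3.95% of the 148468 tested probe sets were called higher. The median of the 13 changes was 1.52, below the gene-level value of 1.87, which is larger than the change of any single probe set. On control 1 the median of the gene fell on probe set 6 (9.68), and on the other arrays it fell on probe set 3, whose control values were 9.88, 9.83 and 10.05. Probe set 3 by itself rose by 1.80. With the mean of the probe sets in place of their median the rise was 1.38.

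The brightest Bcat1 probe set, number 1, read 11.58, 11.58 and 11.77 on the controls and 13.01, 13.00 and 13.02 on the insulin arrays. It rose by 1.37, or 2.58-fold, with groups that did not overlap. Probe set 10 read 10.81, 10.89 and 10.79 on the controls against 12.43, 12.42 and 12.35 with insulin. Its rise of 1.57 was close to the median of the gene's probe sets. The smallest rises among the called probe sets were those of number 5 (1.09) and number 11 (1.08), and both groups of arrays were well apart there too.

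Probe set 12 of Bcat1 (10549235) did not follow the rest of the gene. It read 8.15, 8.43 and 8.33 on control arrays 1 to 3, and 8.15, 8.36 and 8.31 on insulin arrays 1 to 3. The groups overlapped fully, and its change was -0.028 (limma adjusted p = 0.905). It was also the dimmest of the 13 probe sets, and signal over background could not be judged from these values. Set against the median of the other Bcat1 probe sets on the same array, it changed by -1.81 ± 0.11 (SE, limma adjusted p = 0.00683). Only 0.0158% of the 145983 probe sets tested in this way were called, and it was the only one among the members. The difference no longer passed with the replicate number as a block (adjusted p = 0.119), without control 1 (0.0538), or without insulin 1 (0.0715), 2 (0.0754) or 3 (0.0922), while its size stayed between -1.89 and -1.76 with any 1 array left out.

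**Figure D2:**
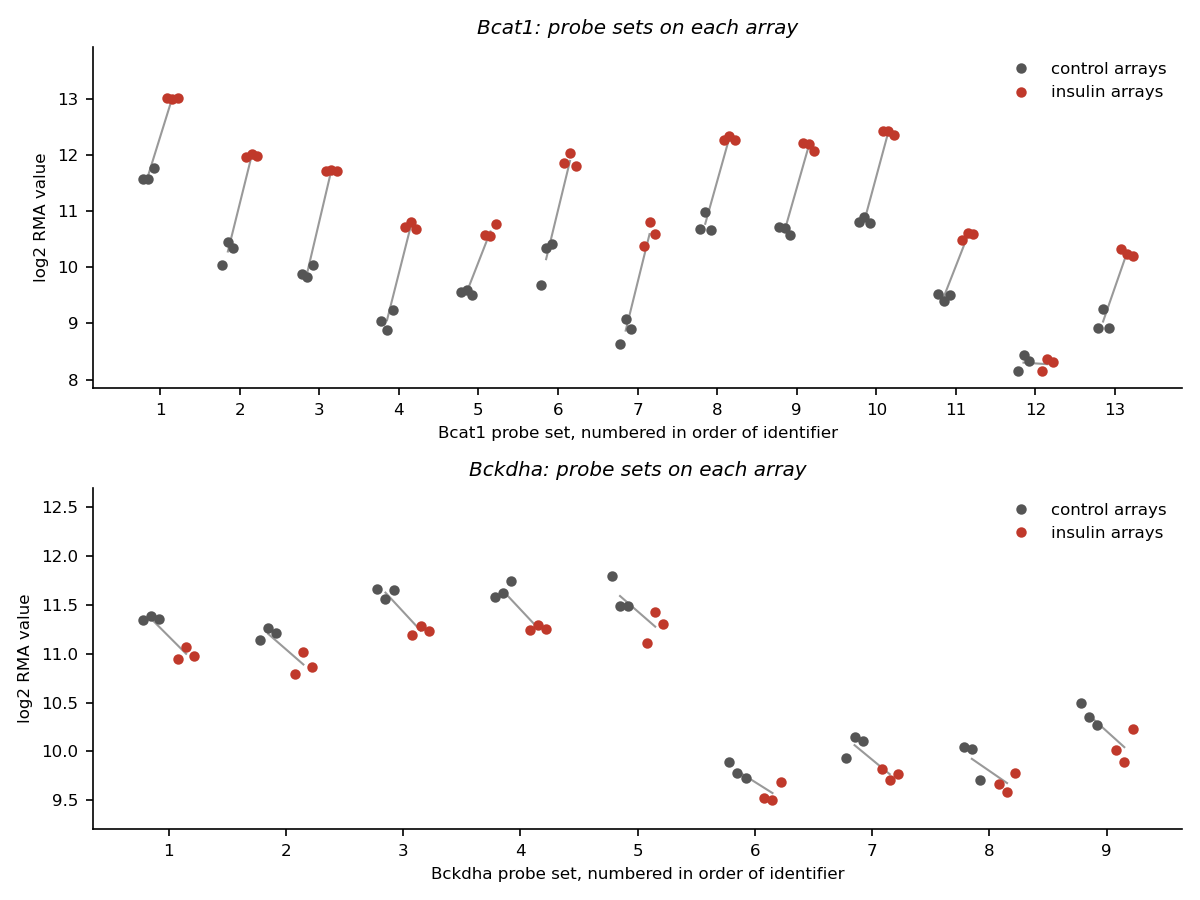
Log2 RMA values (y axis) of each probe set of Bcat1 (top) and Bckdha (bottom) on 3 control arrays (grey) and 3 insulin arrays (red). Probe sets are numbered on the x axis in order of identifier and lines join the group means. All Bcat1 probe sets but number 12 are higher with insulin, and all 9 Bckdha probe sets have a lower insulin mean.

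Markers of undifferentiated and proliferating myoblasts moved with the same groups. Of 6 measured markers of that list 5 were called higher (Myf5, Cd34, Met, Mki67 and Top2a), where 9.56% of all tested genes were. Pax7 changed by -0.032 and did not pass. The list's mean level lay between 9.54 and 9.65 on the controls and between 10.00 and 10.09 on the insulin arrays. The markers' part in the rise of Bcat1 was not tested. In these cultures more cells of a type and more RNA per cell cannot be told apart.

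Bcat2, the mitochondrial aminotransferase, read 11.16, 11.15 and 11.12 on control arrays 1 to 3, and 11.02, 11.16 and 11.21 on insulin arrays 1 to 3. The insulin arrays lay on both sides of the controls. The change was -0.016 ± 0.071 (SE, limma adjusted p = 0.910), with a 95% confidence interval from -0.18 to 0.15 that leaves room for only small shifts either way. None of its 11 probe sets was called, and their changes ran from -0.18 to 0.18. The brightest Bcat2 probe set had means of 12.74 ± 0.09 and 12.71 ± 0.08 (SD, n = 3).

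The balance between the aminotransferases was compared within each array, as the Bcat1 value minus the Bcat2 value. This difference was -1.48, -1.32 and -1.08 on the controls and 0.70, 0.57 and 0.50 on the insulin arrays, with no overlap. Its mean moved by 1.89, and the exact two-sided permutation test gave p = 0.1, the smallest that 3 against 3 arrays allow (0.2 adjusted over the 2 differences tested). Probe sets of different genes bind with different strength, so the sign of the difference on an array does not say which transcript was more abundant. With the mean of the probe sets the shift was 1.40, and with only the brightest probe sets 1.39.

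Bckdha, the alpha subunit of the decarboxylase, was the member that fell. Its gene values were 11.14, 11.26 and 11.21 on the controls and 10.79, 11.02 and 10.86 on the insulin arrays, so every insulin array lay below every control. Bckdha fell by 0.31 ± 0.08 on the log2 scale (SE, limma adjusted p = 0.0322), a ratio of insulin to control of 0.805. On every array the median of the gene fell on probe set 2, so the gene values are those of that probe set. Probe set 2 was not called in limma's test at probe set level, so the gene's call and that probe set are not separate evidence. With the mean of the probe sets in place of their median the gene was also called lower. The groups did not overlap in 3 of the 7 tested members (Bcat1, Bckdha and Dbt), as in 35.7% of all tested genes. The call lay close to the threshold and was lost without control 2 (adjusted p = 0.111), control 3 (0.0566), insulin 1 (0.109) or insulin 3 (0.111). It was also lost when dim genes were kept in the test (0.0594).

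The 9 Bckdha probe sets moved together. Their changes ran from -0.39 to -0.23, and in 8 of them the insulin arrays lay wholly below the controls. The share of all probe sets without overlap was not computed, so how unusual this count is cannot be said. The 35.7% given above is for genes and for either direction. Limma called 3 of the 9 lower, where 1.71% of all tested probe sets were, and no probe set was called with any 1 array left out. The called ones were numbers 1, 3 and 4. Probe set 3 read 11.66, 11.56 and 11.65 on the controls against 11.19, 11.28 and 11.23 with insulin. Probe set 4, the brightest of the gene, fell from 11.65 ± 0.08 to 11.26 ± 0.03 (SD, n = 3). No Bckdha probe set differed from the rest of its gene in limma's test (lowest adjusted p = 0.878).

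Bckdhb, the beta subunit that pairs with Bckdha, lay below the level needed for the test. Its gene values were 6.11, 6.12 and 5.71 on the controls and 5.95, 5.35 and 5.64 on the insulin arrays, where the filter on dim genes stood at 7.05. The groups overlapped, and the difference of means was -0.33 with SDs of 0.23 and 0.30. Only 2 of its 11 probe sets passed the filter, with changes of -0.13 and -0.12, and neither was called. Without the filter the gene still did not pass (limma adjusted p = 0.301). The value turned to 0.24 with the brighter part of its probe sets, so no direction is given for this subunit.

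Dbt, the transacylase core, read 9.51, 9.58 and 9.56 on the controls and 9.67, 9.62 and 9.67 on the insulin arrays. The insulin arrays lay just above the controls without overlap, but the change of 0.10 ± 0.06 (SE) did not pass (limma adjusted p = 0.309). Of its 12 probe sets, 10 were higher with insulin and none was called. The widest difference was in probe set 9, which read 9.07, 9.14 and 8.98 on the controls against 9.61, 9.56 and 9.32 with insulin (0.43, limma adjusted p = 0.0623). Probe set 8 moved the other way, by -0.19, and did not pass either.

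The kinase gene Bckdk read 11.03, 11.03 and 10.92 on the controls and 10.98, 10.98 and 11.02 on the insulin arrays. The groups overlapped and the change was -0.0004 ± 0.065 (SE, limma adjusted p = 0.998), with a 95% confidence interval from -0.15 to 0.15. Its 14 probe sets were split evenly, 7 up and 7 down, and none was called. The phosphatase gene Ppm1k read 8.46, 8.72 and 8.75 on the controls and 8.65, 8.59 and 8.63 on the insulin arrays. Control 1 lay below the insulin arrays and the other controls above them, and the change was -0.018 ± 0.088 (SE, limma adjusted p = 0.914). The Ppm1k probe sets had changes of both signs, but none differed from the rest of the gene in limma's test (lowest adjusted p = 0.529). Probe set 6 changed by -0.33 and probe set 1 by -0.26, while probe set 4 changed by 0.25, and none was called.

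Within each array the Bckdk value exceeded the Ppm1k value by 2.58, 2.30 and 2.17 on the controls and by 2.32, 2.39 and 2.39 on the insulin arrays. The mean shift between groups was 0.018 (exact two-sided permutation p = 0.9), smaller than the spread of the controls (SD 0.21). It was 0.21 with the brighter probe sets and 0.13 without control 1, each with an exact permutation p = 0.1, the smallest possible. For Ivd, the dehydrogenase of the leucine arm, the values were 10.66, 10.70 and 10.70 on the controls and 10.61, 10.68 and 10.62 on the insulin arrays. These overlapped, and the change was -0.052 ± 0.061 (SE, limma adjusted p = 0.621). Its 13 probe sets changed by -0.21 to 0.22 and none was called.

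**Figure D3:**
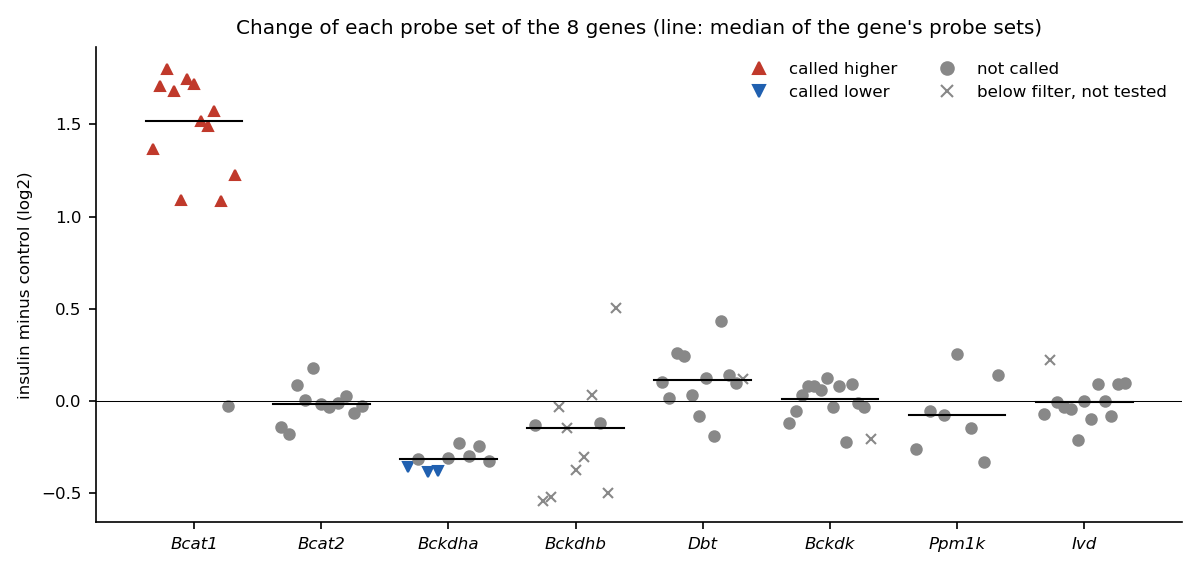
Change of every probe set of the 8 genes, insulin minus control on the log2 scale (y axis), grouped by gene on the x axis, with a line at each gene's median. Triangles are probe sets called by limma, circles were tested and not called, and crosses lay below the filter. The median stands at 1.52 for Bcat1 and -0.31 for Bckdha, and between -0.15 and 0.11 for the other genes.

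Downstream in the leucine arm, 1 of 5 tested genes of the list rose, none fell and 4 did not pass, with a median change of 0.19. Acat1, the mitochondrial thiolase that cleaves acetoacetyl-CoA, rose from 10.71 ± 0.14 to 11.21 ± 0.10 (SD, n = 3, limma adjusted p = 0.0101). Oxct1, which activates ketone bodies, changed by 0.19 and did not pass (adjusted p = 0.171), but passed with array weights (0.0448), the mean of probe sets (0.0393) or the brighter ones (0.0490). The list of the isoleucine and valine arm had 1 fall and no rise among 15 tested genes, 14 of which did not pass, and a median of -0.074. Each gene was placed in 1 list only, and Acat1 in that of the leucine arm, so the 2 counts do not contrast the arms as such. Acadsb, the dehydrogenase of short branched acyl-CoA in the isoleucine path, fell by 0.31 ± 0.06 (SE, limma adjusted p = 0.0159), a call lost without control 2 (0.0580), insulin 1 (0.0641) or insulin 2 (0.0560). Hsd17b10, a later dehydrogenase of the same path, changed by -0.033. Over all tested genes 15.9% were called in either direction.

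Transporters and sensors of these amino acids changed in both directions. Of 10 tested members of the list of transport, sensing and regulators, 4 rose, 3 fell and 3 did not pass, with a median change of 0.10. The share called was 70%, where 15.9% of all tested genes were called, and the list was chosen with earlier results of these data known. With the brightest probe set 3 of its genes were called. The list shows no common direction. Sesn2, a leucine-binding regulator of mTORC1 that stress also induces, read 9.13, 9.05 and 8.99 on the controls and 10.07, 10.08 and 10.10 on the insulin arrays. It rose by 1.03 ± 0.07 (SE, limma adjusted p = 1.30e-04), while its relative Sesn1 fell by 0.48. Gatsl3 (now Castor1), whose product senses arginine and not a branched-chain amino acid, rose by 0.48, a call lost without insulin 2 (limma adjusted p = 0.0605) or insulin 3 (0.0834), or with the brightest probe set (0.63, 0.0643). Slc43a2 and Slc43a1 encode facilitated carriers of large neutral amino acids, LAT4 and LAT3. Slc43a2 read 9.72, 9.63 and 9.75 on the controls against 8.95, 8.90 and 8.91 with insulin and fell by 0.78 ± 0.06 (SE, limma adjusted p = 4.91e-04). Slc43a1 fell by 0.55, a call lost with the brightest probe set (-0.80, adjusted p = 0.133). Lars, the leucyl-tRNA synthetase, rose by 0.34, and Slc3a2, the heavy chain of the main leucine transporter, by 0.23. The call of Lars was lost without control 2 (limma adjusted p = 0.0530) or insulin 2 (0.0560), and with the brightest probe set, where the rise was 0.17 (0.182). That of Slc3a2 was lost with any 1 array left out (0.0577 to 0.112). The light chain gene Slc7a5 changed by 0.14 and did not pass (adjusted p = 0.322), but passed with array weights (0.20, adjusted p = 0.0320). Slc25a44, a mitochondrial carrier of branched-chain amino acids, changed by 0.059 and Klf15, a regulator of their catabolism, by 0.039. Neither passed, and both signs turned with the brightest probe set. Sesn1, Lars, Slc3a2, Slc25a44, Klf15 and, below, Dld were picked for the text after their values were seen.

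In the sister complexes, pyruvate and 2-oxoglutarate dehydrogenase, no catalytic subunit passed the test in the fit reported here. With array weights 7 genes of the list of these complexes were called, 2 higher and 5 lower, and those were not all regulators. Among the 14 tested members of that list there were 3 falls and no rise, and 11 did not pass, with a median of -0.059. This came to 21.4% called, not far from the 15.9% of all tested genes called in either direction. The 3 that fell were all regulators of pyruvate dehydrogenase: the kinases Pdk4 (by 0.65) and Pdk2 (by 0.55) and the phosphatase Pdp1 (by 0.52). Pdp1 read 11.19, 11.27 and 11.23 on the controls against 10.69, 10.70 and 10.77 with insulin (limma adjusted p = 0.00215), and its call was lost with the brightest probe set (-0.34, adjusted p = 0.0545) or the brighter ones (-0.32, 0.172). Pdhb changed by 0.057, and Dld, the subunit that these complexes share with the branched-chain complex, by 0.041 (adjusted p = 0.825), with a sign that turned under some settings for both.

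Other aminotransferases and glutamate enzymes gave 2 rises and 1 fall among 10 tested genes, with 7 not passing and a median of 0.13. Psat1, the aminotransferase of serine synthesis, rose by 0.27 (limma adjusted p = 0.0366) and Ccbl2 (now Kyat3), a kynurenine aminotransferase, by 0.45 (adjusted p = 0.0396). The call of Psat1 was lost with any 1 array left out (limma adjusted p from 0.0610 to 0.121), and its rise shrank to 0.095 with the brightest probe set (0.330) and 0.11 with the brighter ones (0.266). That of Ccbl2 was lost without control 1 (0.0904), control 3 (0.0737), insulin 2 (0.123) or insulin 3 (0.139). It was also lost with the brighter probe sets (0.19, adjusted p = 0.161), with the brightest (0.43, 0.135) and with dim genes kept (0.0686). Glul, glutamine synthetase, fell by 0.42 (adjusted p = 0.00458). Got1, the cytosolic aspartate aminotransferase, had a change of 0.17 that missed the threshold (limma adjusted p = 0.116). It passed with the mean of probe sets (0.27, adjusted p = 0.00515), the brighter ones (0.23, 0.0258), an intensity trend (0.0163) or array weights (0.0299). The rise of Bcat1 was thus the widest change measured in these aminotransferase genes.

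**Figure D4:**
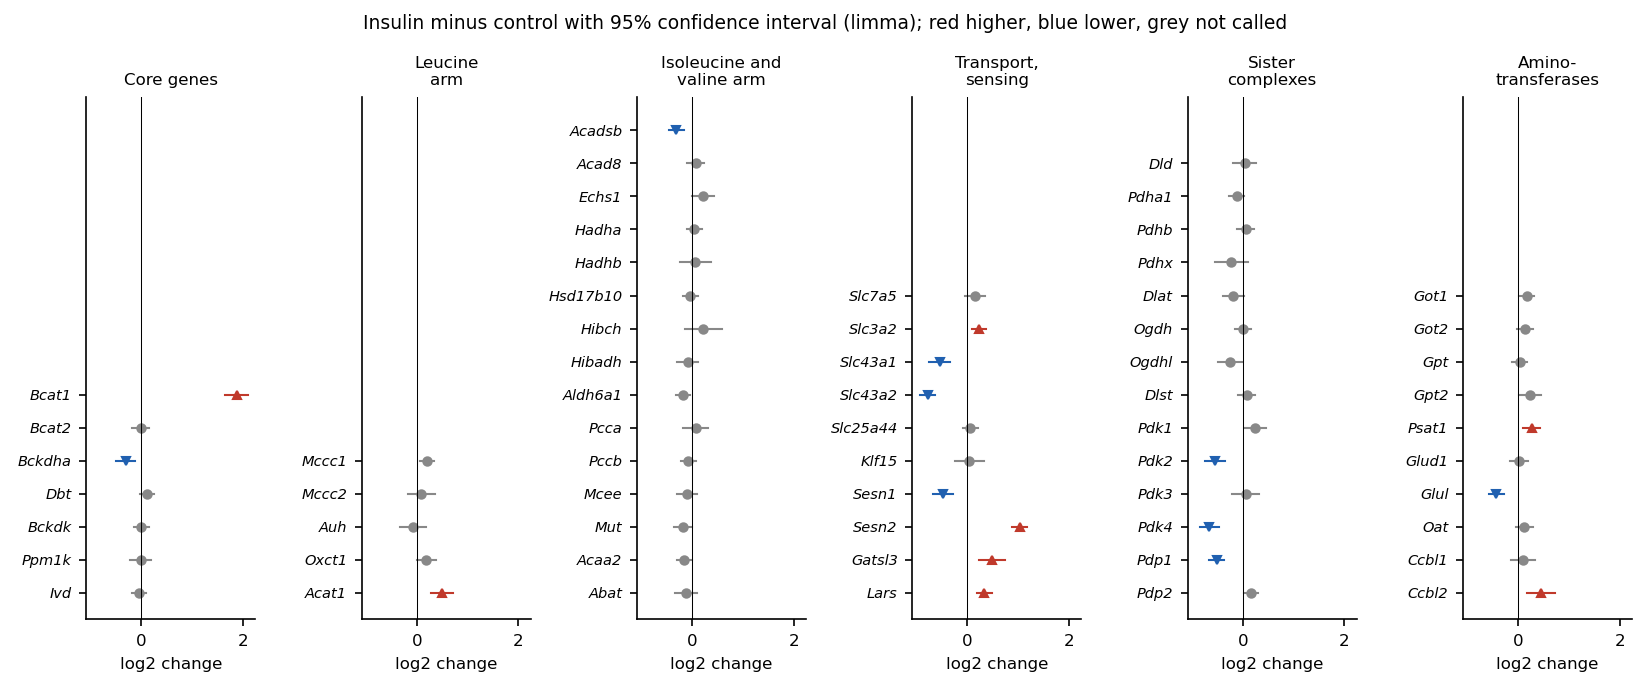
Log2 change, insulin minus control (x axis), with limma's 95% confidence interval for the tested core genes and for the 5 lists around them, 1 gene per line. Red triangles were called higher, blue triangles lower and grey circles not called. Bcat1 at 1.87 and Sesn2 at 1.03 are the rises furthest to the right, and Slc43a2 at -0.78 is the fall furthest to the left.

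The genes whose profile over the 6 arrays lay nearest to that of Bcat1 were found by the root mean square distance of values centred on each gene's mean, among 14290 tested genes. They were Gsta3 at a distance of 0.056, Trib3 at 0.11, Krt13 at 0.13, Ero1l at 0.15 and Dhrs9 at 0.17 on the log2 scale, where Bcat1 itself deviated by 0.94 from its mean. Gsta3, a glutathione S-transferase, had means of 9.95 and 11.76, and Trib3, a stress-induced pseudokinase, of 8.90 and 10.71. With 6 arrays in 2 groups genes with a change of like size lie near each other by construction. The profiles nearest to Bcat2 were those of Vapb (0.011), Zfp64, Atp5f1 (now Atp5pb), Gng10 and Hbegf (0.019), all with changes within 0.02 of zero.

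The labelled cell type was checked against markers. All 10 muscle markers (among them Myog, Ckm, Acta1 and Des) lay above the filter on dim genes, and their mean level was 12.80 to 13.00 on the controls and 12.62 to 12.68 on the insulin arrays, with Myog and Ckm called lower. Markers of other cell types above the filter were 4 of 6 for adipocytes, 1 of 5 for endothelium, 1 of 4 for leukocytes, 3 of 4 for epithelium, 3 of 3 for neurons and 1 of 4 for hepatocytes. Those above it included Plin1 (7.88 on the controls), Cidec, Cfd and Retn for adipocytes, Cdh1 (8.46), Krt8 (9.15) and Krt18 for epithelium, and Syt1, Snap25 and Tubb3 for neurons. Those below it included Adipoq (5.43), Cdh5 (5.85), Ptprc (6.18), Epcam (6.31) and Alb (5.86). Among these lists Tubb3 alone was called, with a rise of 0.53.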

How the data were processed

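The deposited table holds the authors' log2 expression values for 6 arrays, made with RMA per the submitters' processing notes. RMA in general subtracts background, quantile-normalizes the arrays and summarises probes robustly; version and settings: not given in the sources used here. The range of values (3.15 to 14.6) pointed to log base 2. The array medians lay between 8.79 and 8.82, so changes are relative to the other transcripts, and a change in total RNA would not show. Per the labels' protocols 25 ng of RNA was amplified before labelling. Probe intensities, detection calls and hybridization batches were not used here. Precision is limited by having 3 arrays a group.

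The 212097 probe sets with exactly 1 symbol in GEO's platform annotation were summarised by gene. Genes below the 30th percentile of mean level (7.05; probe sets, 7.57) were left out. Fits used limma 3.58.1 in R 4.3.3 without covariates, two-sided, at gene and probe set level. The test of a probe set against the rest of its gene was first set as diffSplice. On simulated data with 200 shifted probe sets diffSplice recovered 192 and called 1118 probe sets of other genes. It was replaced, after seeing the data, by limma on each probe set minus the median of the gene's others, which recovered fewer, 138, and called 7 of other genes. The genes, lists and tests were chosen with earlier results of these data known. The motifs were chosen after the sequences were seen. Named genes are the 8 members, up to 4 called genes with the widest change and the brightest uncalled gene of each list, and the 5 nearest profiles of Bcat1 and Bcat2. Listed genes below the filter (Hmgcll1, Slc7a8, Ppargc1a, Ppara, Aadat, Agxt2) were not tested, and some listed genes are not reported here.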

Additional observations from a re-analysis of the deposited data

How the results depend on the processing

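Under the 10 alternatives that bear on gene values and with each of the 6 arrays left out, Bcat1 kept its direction and its call, with a rise between 1.37 and 1.97 on the log2 scale. Bckdha stayed negative throughout (-0.38 to -0.26). It was the member counted as lower, and that count was 0 with no filter and 0 to 1 with an array left out. Over all members, probe sets called lower (3 in Bckdha as reported) numbered 0 with the replicate number as a block, 0 with no filter, 8 with array weights and 0 with any array left out. The replicate block ended the call of Bcat1 probe set 12 (0 called) and no member's gene-level call (Bcat1 adjusted p = 0.000980, Bckdha 0.0342, limma). With the block the calls of Gatsl3 (adjusted p = 0.0546), Psat1 (0.0616) and Slc3a2 (0.0704) were also lost. The labels do not say whether samples of the same number were made together. Same-numbered arrays deviated from their group means with correlations of 0.025, 0.19 and -0.00036 for replicates 1, 2 and 3. Arrays of different numbers were not compared in this way, so pairing was not settled. The count for that probe set was also 0 with the 50th percentile filter, which removes it, and 0 to 1 with an array left out, while diffSplice gave it an adjusted p of 2.02e-13.

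The Bcat1 minus Bcat2 shift was 1.40 with the mean of probe sets, 1.39 with the brightest and 1.51 with the brighter ones. Signs of uncalled members turned in places: with the brighter probe sets Bckdk lay at 0.0042 and Ivd at 0.038. With an array left out Bckdk ranged from -0.038 to 0.020, Ppm1k from -0.11 to 0.033 and Bcat2 from -0.054 to 0.041. Among uncalled genes of the lists, Dld lay at -0.017 with array weights, -0.0089 with the mean of probe sets and -0.047 with the brighter ones, and Pdhb at -0.060 with the brightest and -0.0017 with the brighter ones. With the brightest probe set Hsd17b10 lay at 0.0031, Klf15 at -0.078 and Slc25a44 at -0.045. With an array left out Dld ranged from -0.042 to 0.11 and Klf15 from -0.087 to 0.17. Over all named genes and counts 714 values were recomputed, of which 592 kept their direction and side of the threshold or their size.

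Of the lists, the leucine arm had 2 genes called with the 50th percentile filter, 3 with array weights, 3 with the mean of probe sets and 2 with the brighter ones. The isoleucine and valine arm had 2 with an intensity trend, 5 with array weights, 2 with the brightest probe set, 2 with the brighter ones and 0 to 1 with an array left out. Transport and sensing had 3 with the brightest probe set and 4 to 6 with an array left out. The sister complexes had 7 with array weights. The aminotransferases had 1 with no filter, 5 with array weights, 5 with the mean of probe sets and 1 to 2 with an array left out. The cause was not tested.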
